A study of Mus musculus with 18 samples.

Results

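The genes described here are 8 genes of the myelinating Schwann cell: 6 myelin proteins (Mbp, Pmp22, Prx, Mag, Mal and Cldn19) and 2 transcription factors (Egr2 and Pou3f1). They were chosen by name, and each matched 1 row of a table of 36737 genes. All 8 passed the filter on low counts. Bulk RNA-seq had been carried out on lumbar dorsal root ganglia (DRG, levels L3–L5) of adult CD1 mice, an outbred strain, in 3 groups of 6 mice with 3 males and 3 females each and 1 library per mouse. The Sham group underwent sham surgery. The Fracture group underwent tibial fracture of a hind limb with a pin in the bone and received vehicle, and the Fracture+PDX group underwent the same fracture and received PDX (protectin DX), a lipid mediator made from docosahexaenoic acid. Ganglia of the fracture groups were collected on day 3, the labels give no genetic change for any mouse, and the dose of PDX and the day of the Sham ganglia are not given in the sources used here. The comparisons ask whether the fracture, and PDX given with it, went along with a different level of myelin transcripts in the ganglion.

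On build mm10 the genes lie at chr18:82475146-82585637 (Mbp, ENSMUSG00000041607), chr11:63128982-63159547 (Pmp22, ENSMUSG00000018217), chr7:27497388-27520214 (Prx, ENSMUSG00000053198), chr7:30899176-30914865 (Mag, ENSMUSG00000036634, minus strand), chr2:127633226-127656695 (Mal, ENSMUSG00000027375, minus strand), chr4:119255414-119262438 (Cldn19, ENSMUSG00000066058), chr10:67535475-67542188 (Egr2, ENSMUSG00000037868) and chr4:124656807-124660655 (Pou3f1, ENSMUSG00000090125). A gene on the opposite strand overlaps 4 of them, with at most 258 counts in any library (Gm15541, which overlaps Prx), against at least 47453 counts for Prx itself.

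Myelin around the large sensory axons of a ganglion is made by Schwann cells, each of which wraps 1 stretch of 1 axon. Mbp, the myelin basic protein, holds the cytoplasmic faces of the wraps together, and Pmp22 is a small membrane protein of compact myelin whose gene dose sets off Charcot-Marie-Tooth neuropathy. Prx (periaxin) is a scaffold that ties the outer Schwann cell membrane to the basal lamina, Mag (myelin-associated glycoprotein) lies against the axon, Mal is a proteolipid of membrane sorting, and Cldn19 (claudin 19) seals the tight junctions between wraps. Egr2, also called Krox20, switches on the myelin genes and keeps them on, and Pou3f1 acts before it, in the promyelinating Schwann cell. After nerve injury Schwann cells are known to lower myelin genes and to raise repair genes such as Jun. A tibial fracture lies far from the lumbar ganglia and is not a nerve transection.

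Promoters are shown because the members rose and fell together between mice, as described below, and because 2 members are themselves transcription factors. RefSeq promoter windows (build GRCm38.p6, from 250 bases before to 50 bases after a transcript start) were found for 6 of the 8 genes, as 16 windows, and for neither Mbp nor Pou3f1. Capitals mark matches, on either strand, to the octamer ATGCAAAT of POU factors, to ACAAAG of SOX factors, or to CATTCC of TEAD factors. Each window is printed 5′ to 3′ in the direction of its gene.
Prx, chr7:27499074-27499373, plus strand: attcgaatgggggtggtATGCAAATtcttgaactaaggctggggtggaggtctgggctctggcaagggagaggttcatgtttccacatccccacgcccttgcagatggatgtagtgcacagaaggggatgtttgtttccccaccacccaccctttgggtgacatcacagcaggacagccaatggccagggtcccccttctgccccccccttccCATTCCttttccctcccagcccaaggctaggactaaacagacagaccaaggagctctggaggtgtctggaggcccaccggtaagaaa
Egr2, chr10:67537619-67537918, plus strand: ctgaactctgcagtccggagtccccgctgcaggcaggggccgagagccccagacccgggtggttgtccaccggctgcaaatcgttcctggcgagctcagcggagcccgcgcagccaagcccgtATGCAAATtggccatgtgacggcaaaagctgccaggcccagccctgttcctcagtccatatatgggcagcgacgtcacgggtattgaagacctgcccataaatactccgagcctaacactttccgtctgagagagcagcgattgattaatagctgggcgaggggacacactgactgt
Pmp22, chr11:63128732-63129031, plus strand: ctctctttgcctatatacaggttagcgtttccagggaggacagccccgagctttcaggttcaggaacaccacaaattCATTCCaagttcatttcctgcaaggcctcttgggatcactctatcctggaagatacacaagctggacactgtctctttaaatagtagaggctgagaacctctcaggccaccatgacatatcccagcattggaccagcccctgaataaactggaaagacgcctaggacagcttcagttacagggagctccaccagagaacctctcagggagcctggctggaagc
Mag, chr7:30914814-30915113, minus strand: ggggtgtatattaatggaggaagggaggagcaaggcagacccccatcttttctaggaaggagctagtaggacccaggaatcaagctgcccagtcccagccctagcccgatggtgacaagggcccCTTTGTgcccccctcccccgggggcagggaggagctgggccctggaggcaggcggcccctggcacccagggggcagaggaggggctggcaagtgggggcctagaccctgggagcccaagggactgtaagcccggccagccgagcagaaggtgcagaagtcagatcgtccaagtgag
Mal, chr2:127656646-127656945, minus strand: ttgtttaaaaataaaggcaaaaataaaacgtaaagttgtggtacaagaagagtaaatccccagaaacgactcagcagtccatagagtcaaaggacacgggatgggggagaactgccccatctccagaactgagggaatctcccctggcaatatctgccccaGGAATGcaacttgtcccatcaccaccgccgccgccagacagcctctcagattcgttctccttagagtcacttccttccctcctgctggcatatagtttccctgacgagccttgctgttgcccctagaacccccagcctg

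The octamer was present in 4 of the 16 windows, 1 of Prx and 3 overlapping windows of Egr2, against 1.74% of 32851 promoter windows of all genes. CATTCC was present in 5 windows, 1 for each of Prx, Egr2, Pmp22, Mag and Mal, against 14.7% of all windows. For Egr2 and Mag these matches lie in windows of other starts, which are not printed. ACAAAG was present in 2 overlapping windows of Mag, against 18.7% of all windows. AACAAT, another SOX motif (10.7% of all windows), and the EGR core GCGNGGGCG (5.55%) were in none of the 16. No match overlapped a match to another motif, and a match is a description of letters and not of binding.

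The levels of the 8 genes spanned nearly 3 orders of magnitude. On the FPKM scale, which divides by transcript length and so allows genes to be compared, the mean over 18 libraries was 1375 for Pmp22, 432.4 for Mbp, 145.8 for Mal, 145.4 for Prx, 42.3 for Cldn19, 12.2 for Mag, 7.81 for Egr2 and 1.87 for Pou3f1. Pmp22 ranked 16th and Mbp 60th of all genes in the table. Each neighbouring pair in that order kept its order in 18 of 18 libraries, apart from Mal and Prx, where Mal was the higher in 10 of 18. The ranges over libraries of Mag and Egr2 overlapped, although Mag was above Egr2 in every library. Together the 8 genes took 0.928% of all counts. Libraries held 63235040 to 82824942 counts on genes, so that even Pou3f1 was measured on at least 427 counts, and counting error was small beside the spread between mice.

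The tissue matched its label. The 12 sensory neuron markers summed to 22150 to 27060 CPM (counts scaled to a common library size, corrected for composition by TMM) in the 18 libraries. Mbp, Mag and Mal are also made by oligodendrocytes of the spinal cord, but 7 markers of oligodendrocytes summed to only 4.17 to 10.6 CPM, with Mog, Opalin and Olig2 at 0 counts in at least 1 library, against 6182 to 13450 CPM for the 8 myelin genes. Markers of skeletal muscle ranged from 12.4 to 1150 CPM between libraries and are returned to below.

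Myelin protein transcripts were lower on average after fracture than after sham surgery, without a difference that passed the test. Mbp was at 2878, 4389 and 5883 CPM (lowest, median and highest of 6 mice) in Sham, at 3010, 3748 and 4656 CPM in Fracture, and at 3597, 3910 and 4087 CPM in Fracture+PDX. Pmp22 was at 2137, 3774 and 5163 CPM in Sham, at 2713, 3354 and 4086 CPM in Fracture, and at 3429, 3523 and 3706 CPM in Fracture+PDX. For both genes the range of Fracture+PDX lay inside that of Fracture, which lay inside that of Sham.

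Prx, the scaffold, was at 676, 932 and 1359 CPM in Sham, at 612, 872 and 1066 CPM in Fracture, and at 806, 853 and 931 CPM in Fracture+PDX. Mag, the adhesion molecule facing the axon, was at 43.1, 64.4 and 75.6 CPM in Sham, at 40.7, 53.9 and 66.0 CPM in Fracture, and at 44.97, 50.5 and 54.9 CPM in Fracture+PDX. In these genes too the groups overlapped, and the Sham mice with the most transcript stood above every fractured mouse.
Mal was at 281, 483 and 657 CPM in Sham, at 328, 418 and 533 CPM in Fracture, and at 391, 424 and 470 CPM in Fracture+PDX. Cldn19 was at 146, 201 and 303 CPM in Sham, at 143, 189 and 241 CPM in Fracture, and at 172, 189 and 208 CPM in Fracture+PDX. The pattern was that of the other myelin proteins, with a wide Sham group around a narrow Fracture+PDX group.

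The transcription factors were also spread over overlapping ranges. Egr2 was at 14.2, 31.5 and 38.9 CPM in Sham, at 17.9, 27.2 and 40.7 CPM in Fracture, and at 22.5, 29.6 and 36.4 CPM in Fracture+PDX. Pou3f1 was at 6.74, 9.11 and 11.1 CPM in Sham, at 5.51, 7.33 and 8.21 CPM in Fracture, and at 6.44, 7.51 and 10.6 CPM in Fracture+PDX. Its 6 Fracture libraries all lay below the Sham median, although the groups overlapped. The coefficient of variation of the 6 proteins ran from 22.2% (Mag) to 30.2% (Pmp22) in Sham, from 13.2% to 17.9% in Fracture and from 3.17% to 6.88% in Fracture+PDX, while Egr2 varied by 29.0%, 28.4% and 16.4% and Pou3f1 by 16.7%, 16.6% and 18.7% in these groups. The difference in spread between groups was not tested.

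**Figure D1:**
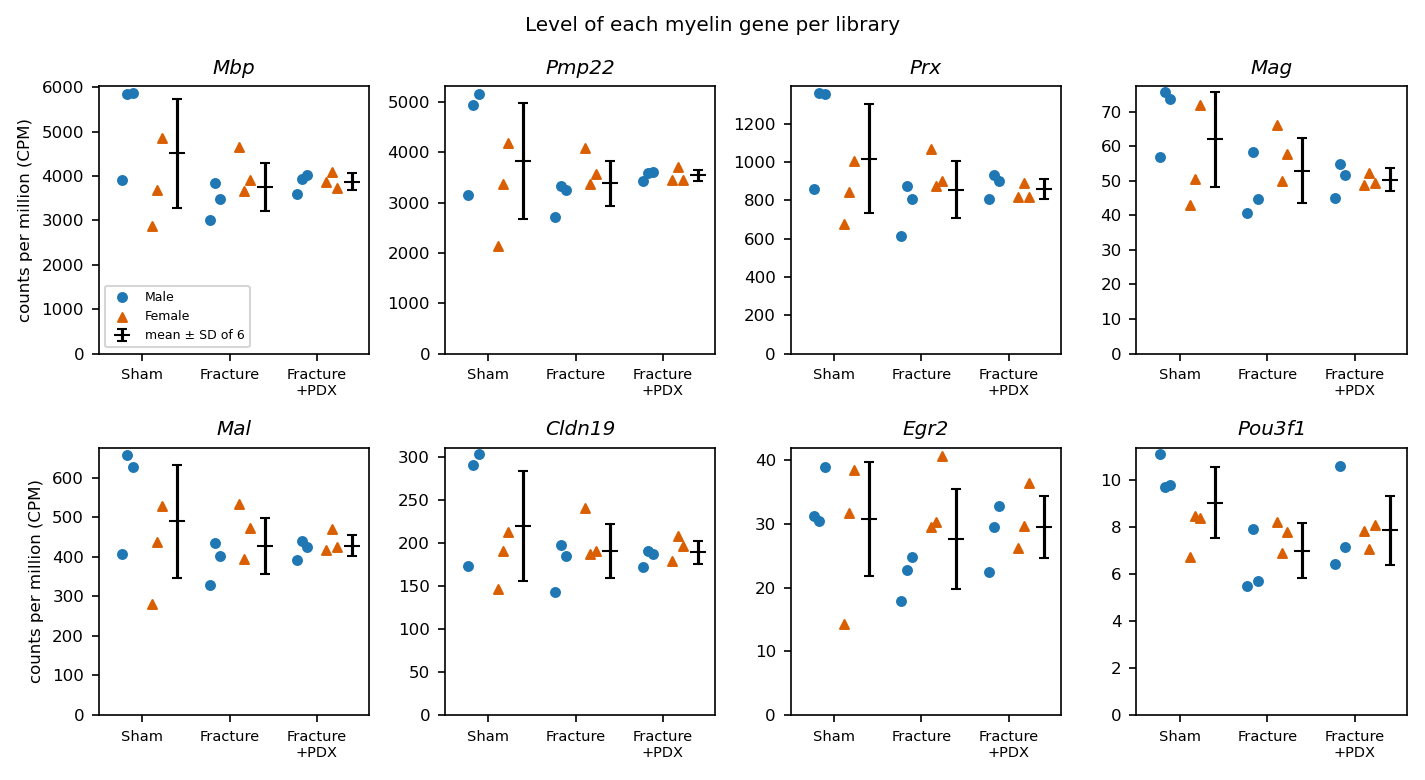
CPM (vertical axes from 0) of the 8 myelin genes in each of 18 libraries by group (horizontal axes), with circles for males, triangles for females and a bar for the mean ± SD of 6 mice. In the 6 myelin proteins the Sham mice spread widely (Mbp 2878 to 5883 CPM), 2 Sham males stand highest, and the Fracture+PDX mice lie close together (Mbp 3597 to 4087 CPM).

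The same few libraries stood at the ends of the range for most of the 8 genes. Sham Male 2 and Sham Male 3 were the highest 2 of 18 libraries for all 6 myelin proteins, with Mbp at 5861 and 5883 CPM. Sham Female 1 was the lowest Sham library for all 8 genes, and the lowest of all 18 for Mbp, Pmp22, Mal and Egr2. Fracture Male 1 was the lowest Fracture library for all 8 genes, and the lowest of all 18 for Prx, Mag, Cldn19 and Pou3f1. The map of log2 levels by library shows these as columns that keep 1 colour down the list of proteins.

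**Figure D2:**
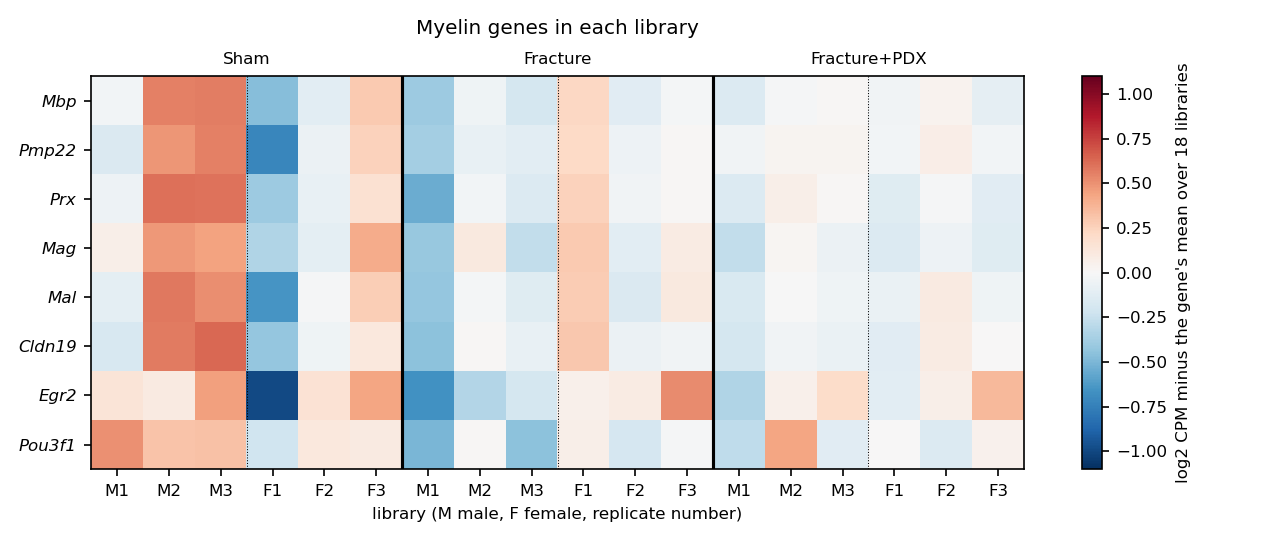
Log2 CPM of each gene minus its mean over 18 libraries (colour, red above and blue below the mean), with genes in rows and libraries in columns by group, sex and replicate number. Columns change colour as a block across the 6 proteins, most strongly in Sham, where Male 2 and Male 3 are red and Female 1 is blue, and the Fracture+PDX columns are pale.

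Fracture was compared with Sham to ask whether myelin transcripts moved in the ganglion on day 3. Log2 fold changes (± SE, edgeR quasi-likelihood test with sex as covariate, 6 mice per group) were -0.25 ± 0.19 for Mbp, -0.16 ± 0.21 for Pmp22, -0.23 ± 0.20 for Prx, -0.22 ± 0.17 for Mag, -0.18 ± 0.21 for Mal, -0.18 ± 0.20 for Cldn19, -0.18 ± 0.26 for Egr2 and -0.36 ± 0.13 for Pou3f1. None of the 8 passed an adjusted p (Benjamini-Hochberg over all 20659 genes tested) of 0.05, where 2.92% of all genes did, and DESeq2 called none either. At an unadjusted p below 0.05 there was 1 of 8, Pou3f1 (adjusted p 0.166, edgeR), beside 18.5% of all genes. The adjusted p of the other 7 ran from 0.543 to 0.783. All 8 estimates were negative, where 49.3% of all genes had a negative one, and their median was -0.20 against 0.00 for all genes tested. Because the 8 genes moved together from mouse to mouse, the shared sign does not stand for 8 separate measurements. In an exact permutation test over the 924 ways of labelling 12 libraries (two-sided, smallest possible p 0.00216), Pou3f1 had p = 0.026 on log2 CPM, and 0.624 after adjustment over the 24 tests of 8 genes in 3 comparisons. In bulk tissue, fewer Schwann cells and less RNA per Schwann cell cannot be told apart.

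**Figure D3:**
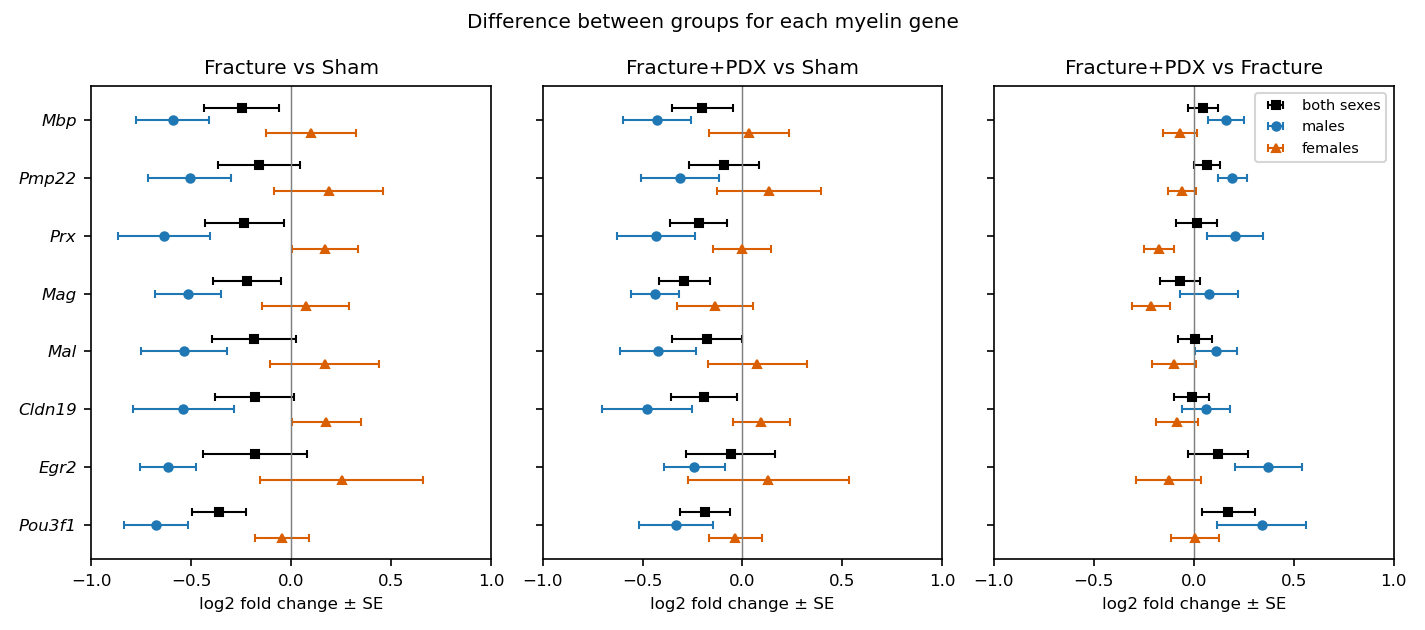
Log2 fold change ± SE (horizontal axes) of each of the 8 genes in 3 comparisons, for both sexes with sex as covariate (squares), males alone (circles) and females alone (triangles). In Fracture vs Sham the males lie from -0.67 to -0.51 and the females from -0.04 to 0.25, and in Fracture+PDX vs Fracture the values for both sexes lie around 0.

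Fracture+PDX against Sham, which shares the Sham libraries with the comparison above, gave log2 fold changes of -0.20 ± 0.15 for Mbp, -0.09 ± 0.18 for Pmp22, -0.22 ± 0.14 for Prx, -0.29 ± 0.13 for Mag, -0.18 ± 0.18 for Mal, -0.19 ± 0.17 for Cldn19, -0.06 ± 0.22 for Egr2 and -0.19 ± 0.12 for Pou3f1. None of the 8 passed the test, by edgeR or by DESeq2, beside 4.50% of 20574 genes. Mag was the one member with an unadjusted p below 0.05 (adjusted p 0.254, edgeR), beside 18% of all genes. All 8 estimates were again negative, against 50.4% of all genes, with a median of -0.19. The exact permutation p of Mag was 0.104.

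PDX against vehicle in fractured mice gave differences near 0 for the 6 myelin proteins in the fit over both sexes. Log2 fold changes were 0.05 ± 0.07 for Mbp, 0.07 ± 0.06 for Pmp22, 0.02 ± 0.10 for Prx, -0.07 ± 0.10 for Mag, 0.01 ± 0.09 for Mal, -0.01 ± 0.09 for Cldn19, 0.12 ± 0.15 for Egr2 and 0.17 ± 0.13 for Pou3f1. The adjusted p was at least 0.949 for every member in edgeR, and none of the 8 had an unadjusted p below 0.05. Among all 20562 genes edgeR called 0%, with 5.41% at an unadjusted p below 0.05, and DESeq2 called 12 genes higher and 9 lower, none of them a member. Pou3f1 shows how little was resolved: its difference of 0.17 had an SE nearly as large, and the Fracture+PDX library with the most Pou3f1 (Male 2, 10.6 CPM) stood apart from the other 5, which reached 8.11 CPM.

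In the comparison with Sham the estimates had opposite signs in the 2 sexes for most members, a difference that did not pass its own test, given below. In males, Mbp was at 5217 ± 1134 CPM in Sham and 3447 ± 417 CPM in Fracture (mean ± SD, n = 3 each), a log2 fold change of -0.59 ± 0.18. Over the 8 genes the males' log2 fold changes ran from -0.67 (Pou3f1) to -0.51 (Pmp22). In females, Mbp was at 3809 ± 1003 CPM in Sham and 4075 ± 520 CPM in Fracture, a log2 fold change of 0.10 ± 0.22, and the 8 genes ran from -0.04 (Pou3f1) to 0.25 (Egr2). Within males 5 of 8 genes (Mbp, Prx, Mag, Egr2 and Pou3f1) had an unadjusted p below 0.05 in edgeR, beside 15.3% of all genes. None of the 8 passed after adjustment, where the lowest adjusted p was 0.116 (Egr2) and 0.0625% of all genes passed. Every fractured male lay below every sham male for Mbp, Egr2 and Pou3f1, as did 11.3% of 21340 genes. In females none of the 8 passed, beside 0.0335% of all genes, and the lowest adjusted p was 0.779 (Prx, edgeR).

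The difference between the sexes was itself tested as an interaction of sex with group. The interaction estimate (log2, female minus male) was positive for all 8 genes, from 0.59 ± 0.30 for Mag to 0.87 ± 0.45 for Egr2. Its unadjusted p was below 0.05 for Pou3f1 (0.63 ± 0.21, adjusted p 0.615, edgeR) and Prx (0.81 ± 0.31, adjusted p 0.637, edgeR), beside 7.20% of all genes. None of the 8 passed after adjustment (the lowest adjusted p in DESeq2 was 0.274), and edgeR called 0% of all genes while DESeq2 called 28 with a positive and 35 with a negative interaction. In Fracture+PDX against Sham the males' log2 fold changes ran from -0.48 (Cldn19) to -0.24 (Egr2) and the females' from -0.14 (Mag) to 0.13 (Pmp22). In males Mag and Mbp had an unadjusted p below 0.05 (adjusted p 0.158 and 0.34, edgeR), beside 2998 of 20674 genes. Every Fracture+PDX male lay below every sham male for Mag alone among the members, and the share of all genes that did so was not counted. No member passed in males (0.726% of all genes did) or in females (0.178%), nor for the interaction (0.00486%), whose lowest adjusted p among members was 0.761. In Fracture+PDX against Fracture the signs differed by sex for 7 of the 8 genes, Pou3f1 being positive in both, with log2 fold changes from 0.06 (Cldn19) to 0.37 (Egr2) in males and from -0.21 (Mag) to 0.01 (Pou3f1) in females, so the values near 0 for both sexes average over these. Every Fracture+PDX male lay above every Fracture male for 1 of 8 genes, Pmp22 (3540 ± 96.2 against 3096 ± 335 CPM, log2 0.19 ± 0.07), as did 5.40% of all genes. No member passed in males (adjusted p at least 0.964, edgeR, and 0% of all genes called) or in females (0.00482%). The interaction estimates ran from -0.49 ± 0.26 (Egr2) to -0.14 ± 0.18 (Cldn19), and none of the 8 passed, beside 0.00486% of all genes, with an adjusted p of 0.998 for every member. Taking the 3 groups together, females and males did not differ beyond the spread for any member (log2 -0.09 to 0.16, adjusted p at least 0.841), where 0.291% of 21340 genes did. That fit averages over opposite differences. The male mean lay above the female mean for all 8 genes in Sham (Mbp 5217 and 3809 CPM) and below it for all 8 in Fracture (3447 and 4075 CPM). Sham Male 2 and Sham Male 3, the highest libraries for the 6 proteins, are among the 3 sham males, and the males' contrast was not fitted without them.

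The 6 myelin proteins followed each other closely from mouse to mouse. Over 18 libraries, with each gene taken as the deviation of its log2 CPM from the group mean, the 15 pairs had Pearson r from 0.873 (Mag and Cldn19) to 0.981 (Pmp22 and Mal) and Spearman rho from 0.884 to 0.979. Permutation p-values (100000 permutations within groups, 28 pairs) were 1e-05, the smallest they can give, to 7e-05 for r, and at most 0.000131 after adjustment. Leaving out, for each pair, the 2 libraries most distant from the first gene's median gave r of 0.781 to 0.971. Within the 6 libraries of a group the median r of the 15 pairs was 0.965 in Sham, 0.967 in Fracture and 0.796 in Fracture+PDX, where the lowest, of Prx and Cldn19, was 0.475. With deviations from the mean of each group and sex in place of the group, the lowest r was 0.834. The points of each pair share a library and its scaling factor.

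The 13 pairs with a transcription factor were looser over all 18 libraries, and they rested on few of them. Their r ran from 0.499 (Cldn19 and Pou3f1) to 0.747 (Egr2 with Pmp22 and with Mal), with permutation p from 0.00268 to 0.0447 and adjusted p up to 0.0447, and their rho from 0.41 to 0.647 with adjusted p up to 0.115. With the 2 most distant libraries left out r fell to between 0.247 and 0.644, with a median of 0.393. Egr2 and Pou3f1, the 2 factors, had r = 0.572 with each other and 0.247 without those libraries. Within groups the median r of these pairs was 0.672 in Sham, 0.716 in Fracture and 0.347 in Fracture+PDX, and in Fracture the 7 pairs with Pou3f1 had a median of 0.852, below the range of the protein pairs in that group (0.896 to 0.985), and the pair with Mag, at 0.975, was the 1 of the 7 within it.

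**Figure D4:**
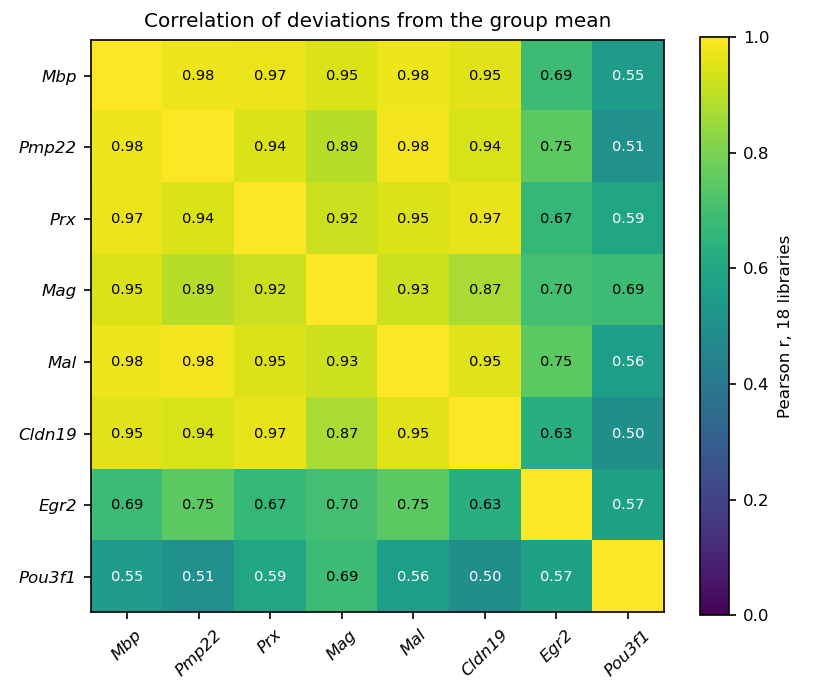
Pearson r (colour and number, 18 libraries) between each pair of the 8 genes, from the deviations of log2 CPM from the group mean. The 6 myelin proteins form a block at 0.87 to 0.98, and the rows of Egr2 and Pou3f1 lie between 0.50 and 0.75.

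The genes whose levels ran closest to the members were sought among 12372 other genes with a mean of at least 5 CPM, by r with the mean of the 8 standardised profiles over the same 18 libraries, given as a description. Among the closest were Sirt2 (r = 0.969), a deacetylase abundant in myelin, Ugt8a (0.963), which makes galactocerebroside, Kif19a (0.958), Cers2 (0.947), a ceramide synthase for very long chains, Lamb1 (0.942) and Col4a2 (0.941), a laminin and a collagen chain of basal lamina, and Sparc (0.941), a matrix protein. Among the most opposite were Alcam (-0.844), a cell adhesion molecule, and Ntng1 (-0.775), an axon guidance protein. Of the other genes named by the rule, Pmp2 had r = 0.798, whereas Sox10 had 0.668, Jun 0.518 and Gpr37 -0.06.

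Other myelin proteins, a list of 15 genes, gave 0 of 15 that passed in Fracture against Sham (2.92% of all genes did), with 13 of 15 estimates negative (49.3% of all genes) and a median of -0.12. The profile of this list had r = 0.956 with the 8 members over the same libraries, so it is not a separate measurement. Drp2, the partner of periaxin in the membrane, had -0.43 ± 0.18 (adjusted p 0.249, edgeR). In Fracture+PDX against Sham, 3 of 15 fell and none rose, beside 4.50% of all genes called in either direction: Bcas1 (-0.35 ± 0.09, adjusted p 0.0426), Art3 (-0.27 ± 0.06, adjusted p 0.0156) and Mpp6 (-0.22 ± 0.05, adjusted p 0.042), by edgeR. Leaving out 1 library at a time, Art3 kept its call in 12 of 12 fits, but Bcas1 and Mpp6 in 3 of 12 each, with adjusted p up to 0.105 and 0.102. After fracture without PDX the same genes were also negative without passing. Bcas1 had -0.36 ± 0.13, Art3 -0.19 ± 0.07 and Mpp6 -0.12 ± 0.07 (adjusted p 0.183, 0.176 and 0.37, edgeR). In Fracture+PDX against Fracture 0 of 15 passed, and Bcas1 had 0.01 ± 0.09. Pmp2 (-0.10 ± 0.35 after fracture), a fatty acid binding protein of myelin, did not pass in any comparison. Of 8 genes listed for myelin lipids, 7 of them enzymes and 1 the membrane proteolipid Pllp, none passed in any comparison, with medians of -0.09 after fracture and -0.13 after fracture with PDX. Cers2 (-0.18 ± 0.12), Ugt8a (-0.28 ± 0.26) and Fa2h (-0.23 ± 0.23), which adds a hydroxyl group to their fatty acids, had the smallest p after fracture.

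Regulators of myelination, a list of 15 genes that also holds Gpr37, known as a brake on oligodendrocyte myelination, were split. After fracture 0 of 15 passed, with a median of -0.02, and the smallest p belonged to Adgrg6 (-0.21 ± 0.08, adjusted p 0.154, edgeR), an adhesion receptor needed to start myelination, Nab1 (-0.12 ± 0.04) and Nrg1 (0.10 ± 0.04), the axonal growth factor. After fracture with PDX 3 of 15 fell against Sham and 1 rose. Erbb2, the kinase partner of the neuregulin receptor, fell from 25.5 ± 1.53 to 21.0 ± 0.636 CPM (log2 -0.28 ± 0.05, adjusted p 0.00604), and Nab2, a cofactor of Egr2, fell from 25.4 ± 3.58 to 19.1 ± 0.664 CPM (log2 -0.41 ± 0.08, adjusted p 0.0122), both in 12 of 12 fits that left out 1 library. Sox10, the lineage factor of Schwann cells and satellite glia, fell (-0.15 ± 0.04, adjusted p 0.0483), and Smarca4, a chromatin remodeller, rose (0.11 ± 0.03, adjusted p 0.0381), by edgeR, but these calls held in only 3 and 2 of 12 such fits, with adjusted p up to 0.118 and 0.0912. After fracture without PDX the same genes had estimates of the same sign. They were -0.15 ± 0.07 for Erbb2, -0.28 ± 0.10 for Nab2, -0.13 ± 0.05 for Sox10 and 0.06 ± 0.03 for Smarca4. In Fracture+PDX against Fracture 0 of 15 passed. Gpr37 was at 16.3 ± 1.32, 17.3 ± 1.24 and 17.98 ± 1.36 CPM in Sham, Fracture and Fracture+PDX and passed in no comparison.

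Repair Schwann cell genes and inhibitors of myelination, 16 genes, showed 1 that rose and none that fell after fracture, with a median of 0.03. The one was Ngfr, the low-affinity neurotrophin receptor (0.14 ± 0.03, adjusted p 0.0413, edgeR), which kept its call in 3 of 12 fits that left out 1 library, with adjusted p up to 0.0967. Jun, the central repair factor, was at 119 ± 11 CPM in Sham and 120 ± 4.74 CPM in Fracture (log2 0.01 ± 0.05). Egr1 (-0.58 ± 0.15, adjusted p 0.0543, edgeR) and Gfap (-0.68 ± 0.33) did not pass. In Fracture+PDX against Sham 0 of the 15 tested passed, and Jun had 0.15 ± 0.06 (adjusted p 0.200, edgeR). Across libraries the mean profile of the list ran against that of the 8 myelin genes (r = -0.568, permutation p 0.0118, adjusted over 14 lists 0.0413, rho -0.606 with adjusted p 0.0415, and r = -0.563 with the 2 most distant libraries left out). Its genes went both ways: among the 10 with at least 5 CPM, Jun had r = 0.518 with the myelin genes and Sox2, Cdh2 and Runx2 had 0.02 to 0.11, while Id2, Shh, Egr1, Ngfr, Notch1 and Gfap had -0.55 to -0.25. Gdnf, Olig1, Pax3, Artn, Btc and Ucn2 reached at most 2.22 CPM (Btc) in any library, yet counted in the list and its profile with equal weight. In bulk tissue the cells that carried Ngfr and Jun were not resolved.
Of 7 markers of non-myelinating (Remak) Schwann cells 2 rose after fracture and the same 2 after fracture with PDX, and none fell. They were the adhesion molecules Ncam1 (0.16 ± 0.03 and 0.23 ± 0.04) and L1cam (0.13 ± 0.03 and 0.17 ± 0.03), which axons also express, and Gap43 (0.21 ± 0.08, adjusted p 0.171, edgeR) did not pass. With PDX both calls held in 12 of 12 fits that left out 1 library, and without PDX in 6 and 2 of 12, with adjusted p up to 0.0598 and 0.102. The Remak profile had r = -0.06 with the myelin genes.

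Markers of other cells in the ganglion were read beside the myelin genes, and their counts, like those of the regulator, repair and Remak lists, stand against 2.92% of all genes called after fracture and 4.50% after fracture with PDX. Sensory neuron markers rose in 6 of 12 after fracture (Nefh, Nefm, Stmn2, Uchl1, Tubb3 and Scn9a) and in 4 of 12 after fracture with PDX (Tubb3, Stmn2, Uchl1 and Rbfox3), none fell, and their sum was 22150 to 24110 CPM in Sham, 24520 to 26120 CPM in Fracture and 23980 to 27060 CPM in Fracture+PDX. Nefh, a neurofilament of large myelinated axons, and Tubb3 led after fracture (0.22 ± 0.04 and 0.17 ± 0.03, adjusted p 0.0126 for both, edgeR), in 12 of 12 fits that left out 1 library. Nefm, Stmn2, Uchl1 and Scn9a held in 4, 6, 8 and 3 of 12, with adjusted p up to 0.0789, 0.0683, 0.0574 and 0.112, and with PDX Uchl1 in 3 of 12, with adjusted p up to 0.107. Of 9 satellite glia markers Ednrb rose after fracture (0.35 ± 0.06, adjusted p 0.00978, edgeR), and with PDX Ednrb (0.36 ± 0.08, 6 of 12 such fits, adjusted p up to 0.0615) and Kcnj10 (0.27 ± 0.07, 1 of 12, up to 0.106) rose. The satellite glia list as a whole was split. After fracture 4 estimates were positive and 5 negative (median -0.01, lowest Sparc at -0.22 ± 0.13), and with PDX 6 were positive and 3 negative (median 0.02). The profile of the satellite glia list had r = 0.702 with the myelin genes (permutation p 0.00351, adjusted 0.0164), but rho of 0.476 did not pass (adjusted p 0.152), and r dropped to 0.543 once the 2 most extreme libraries were left out. Among its 9 genes Sparc had r = 0.941 with the myelin genes and the other 8 had -0.07 (Fabp7) to 0.52 (Apoe).

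Of 7 fibroblast markers Dcn fell after fracture (-0.33 ± 0.07, adjusted p 0.0331, edgeR, 3 of 12 fits that left out 1 library, up to 0.0784), and all 7 estimates were negative. Of 5 perineurium markers Perp (-0.40 ± 0.10) and Slc2a1 (-0.24 ± 0.06) fell after fracture, in 1 and 3 of 12 such fits (adjusted p up to 0.115 and 0.113), and Perp after fracture with PDX (-0.63 ± 0.09, 12 of 12). Of 6 endothelial markers Cdh5 and Flt1 fell after fracture (-0.73 ± 0.12 and -0.71 ± 0.13) and with PDX (-0.74 ± 0.10 and -0.73 ± 0.10), in 12 of 12 fits each. The endothelial list was split after fracture, with 4 negative and 2 positive estimates (Cldn5 0.07 ± 0.14 and Emcn 0.03 ± 0.08) and a median of -0.14. With PDX all 6 estimates were negative, with a median of -0.21. Of 7 macrophage markers Csf1r (-0.47 ± 0.07) and Adgre1 (-0.56 ± 0.10) fell after fracture and Csf1r with PDX (-0.34 ± 0.05), in 12 of 12 fits each. After fracture all 7 estimates were negative, with a median of -0.345. With PDX 4 were negative and 3 positive (Aif1 0.19 ± 0.24, C1qb 0.12 ± 0.10 and C1qa 0.06 ± 0.12), with a median of -0.15.
Skeletal muscle markers had a median log2 fold change of 2.11 in Fracture against Sham and of -1.91 in Fracture+PDX against Fracture, with 0 of 8 called in either, and their sum was 24.5 to 592 CPM in Sham, 49.8 to 1150 CPM in Fracture and 12.4 to 531 CPM in Fracture+PDX. Beyond leaving out libraries, 10 other settings were run on every call in these lists. With a replicate block of sex and number, 14 of the 17 calls after fracture were lost, all but Ednrb, Csf1r and Tubb3, so that Tubb3 was the 1 neuron gene still called and neither Remak gene was. In Fracture+PDX against Sham 5 of 19 calls were lost with that block (Bcas1, Uchl1, Smarca4, Sox10 and Mpp6). After fracture Flt1 also lost its call by limma with no filter, and Ednrb lost its call with no sex term. With PDX Nab2, Rbfox3, Stmn2 and L1cam lost theirs by limma with no filter. The calls that held in fewer than 12 of the 12 fits were kept under 4 to 8 of the 10 settings. The 5 red blood cell and the 4 tested oligodendrocyte markers gave no call. The profiles of the fibroblast, perineurium, endothelial, macrophage, neuron, muscle, red blood cell, oligodendrocyte, Remak and promyelinating regulator lists did not pass with that of the myelin genes after adjustment (r from -0.39 for muscle to 0.518 for the regulators, adjusted p at least 0.077), whereas the other myelin proteins (r = 0.956) and the lipid list (r = 0.948) did (adjusted p 0.00014 each, permutation test). Of the markers with the smallest p in their lists after fracture, these also did not pass: Kcnj10 (0.20 ± 0.06) and Fabp7 (0.33 ± 0.17) of satellite glia, Col1a1 (-0.23 ± 0.07) and Pdgfra (-0.30 ± 0.09) of fibroblasts, Cldn1 (-0.32 ± 0.11) of perineurium, Kdr (-0.22 ± 0.09) of endothelium, Cd68 (-0.46 ± 0.14) of macrophages, Hba-a2 (-0.53 ± 0.23), Alas2 (-0.53 ± 0.24) and Hba-a1 (-0.50 ± 0.25) of red blood cells, Nkx6-2 (0.31 ± 0.13), Ermn (0.40 ± 0.25) and Mobp (0.28 ± 0.55) of oligodendrocytes, and Myh1 (2.74 ± 1.22), Tnni2 (2.24 ± 1.07) and Tnnc2 (2.09 ± 1.03) of muscle. The part of these cells in the myelin results was not tested.

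**Figure D5:**
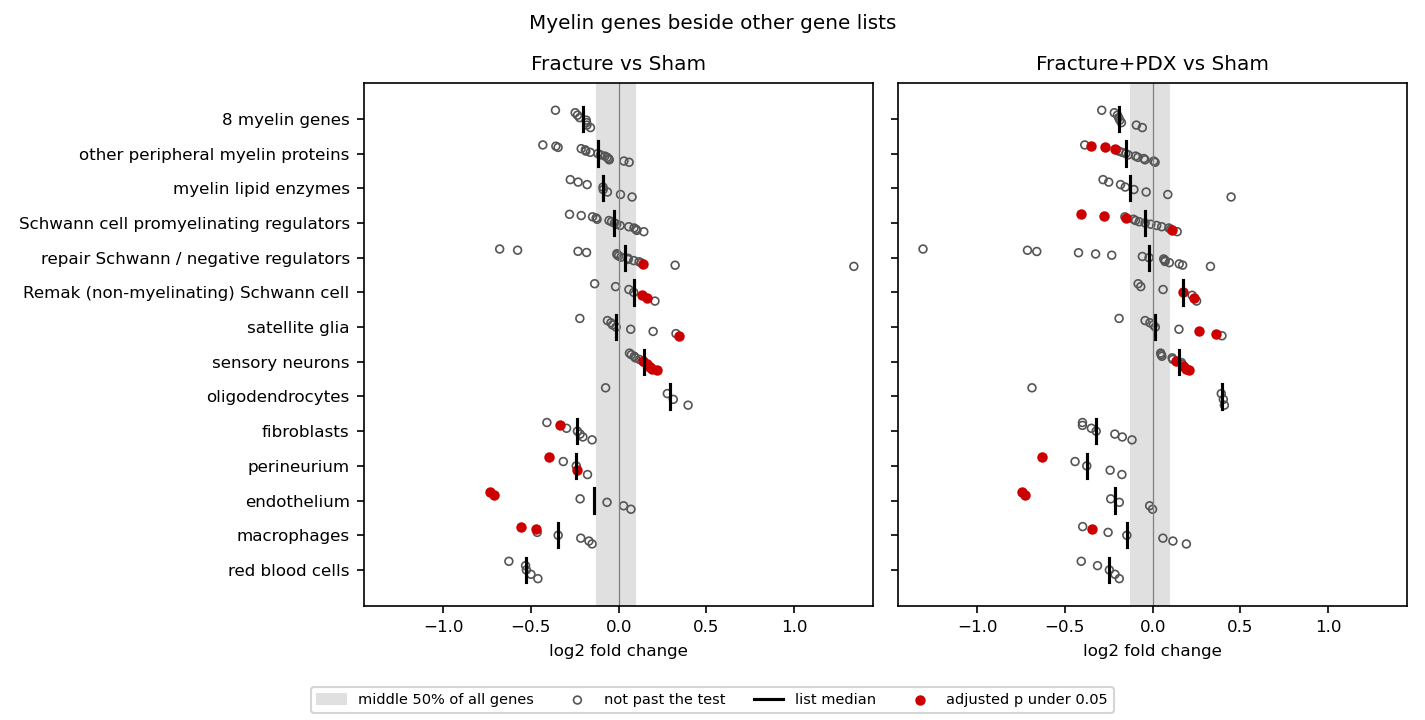
Log2 fold change (horizontal axes) of each gene by list (rows) in Fracture vs Sham and Fracture+PDX vs Sham, with filled points for an adjusted p under 0.05, a bar for the list median and a grey band for the middle 50% of all genes. Skeletal muscle, beyond the axis, is not drawn. The 8 myelin genes lie left of 0 with medians of -0.20 and -0.19 and hold no filled point, and sensory neuron markers lie right of 0.

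The balance among the members kept to narrow limits. The log2 ratio of Mbp to the mean of the other 7 was 4.61 ± 0.08 in Sham, 4.58 ± 0.07 in Fracture and 4.59 ± 0.07 in Fracture+PDX (mean ± SD, n = 6 each), although Mbp itself varied about 2-fold between Sham mice. Pmp22 had 4.32 ± 0.12, 4.41 ± 0.07 and 4.44 ± 0.08, and Mag had -2.44 ± 0.13, -2.45 ± 0.09 and -2.57 ± 0.03. The ratio of Egr2 spread more, with -3.63 ± 0.33, -3.55 ± 0.31 and -3.47 ± 0.21, and that of Pou3f1 was -5.59 ± 0.32, -5.78 ± 0.12 and -5.65 ± 0.23. Among these 5 genes the group means of the ratio lay within the Sham SD of the Sham mean, apart from Mag in Fracture+PDX, which lay just past it.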

How the data were processed

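Poly(A) RNA libraries (TruSeq Stranded mRNA, paired-end, NovaSeq) were made from 18 mice. The authors deposited raw counts per gene and FPKM values for 36737 genes. The submitters' processing notes name cutadapt 1.10, FastQC, HISAT2, StringTie and build mm10, and the counting program and its strand setting are not given in the sources used here. Columns named "Con" were read as Sham, the one group name left. Depth was 63235040 to 82824942 counts per library. No pair of libraries within a group agreed within counting noise.

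Counts were filtered (filterByExpr, minimum count 10), scaled by TMM and tested with edgeR 4.0.16 (R 4.3.3, quasi-likelihood, robust, sex and group, the 12 libraries of each comparison), with Benjamini-Hochberg adjustment over all genes and a threshold of 0.05. DESeq2 1.42.0 and limma 3.58.1 on log2(FPKM + 1) or log2(FPKM + 0.1) of the authors' deposited FPKM were alternatives, as were other scalings and filters, no sex term, a replicate block, all 18 libraries and leaving out each library. Correlations used log2 CPM (prior count 2). All 8 members were named in every comparison, and in each other list up to 3 genes with the smallest p after fracture, all that passed, and Pmp2, Sox10, Jun and Gpr37. A few genes that the rule also names are not reported here. The members and lists were chosen with earlier results of these data known. The motifs were chosen later than the lists. Mice are separate animals, and nothing says whether they shared a litter or a day. Promoters came from RefSeq (GRCm38.p6).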

Additional observations from a re-analysis of the deposited data

Results flagged for a closer look

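Of the 24 sets of 6 libraries (8 genes in 3 groups), 1 held a library far from the rest. Egr2 in Sham was at 14.2 CPM in Female 1, and its gap to the next Sham library was 0.755 of the range of the group on log2 CPM, above the 95% limit of Dixon's test for 6 values, and 0.656 on CPM, only just above it. About 1 set in 20 passes that limit by chance. Without that library the log2 fold change of Egr2 was -0.38 in Fracture against Sham (adjusted p 0.221, edgeR) and -0.22 in Fracture+PDX against Sham (adjusted p 0.367, edgeR), against -0.18 and -0.06 with it.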

How the results depend on the processing

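None of the 8 genes passed in any comparison under any alternative run: 22 alternatives each for 8 genes, 176 values per comparison. The lowest adjusted p was 0.086 in Fracture against Sham (Pou3f1, DESeq2), 0.0742 in Fracture+PDX against Sham (Mag, without Sham Female 1) and 0.794 in Fracture+PDX against Fracture. Single libraries moved the estimates against Sham both ways. Without Sham Female 1 that of Pmp22 was -0.30 after fracture and -0.22 with PDX, and that of Mal -0.32 and -0.30. Over the 22 alternatives that of Cldn19 after fracture ran from -0.289 to -0.0855. In Fracture against Sham the estimates shrank by over 1.5 times without Sham Male 2, Sham Male 3 or Fracture Male 1 for Pmp22 (-0.0873, -0.0701 and -0.0823), Prx (-0.147, -0.15 and -0.127), Mal (-0.0936, -0.114 and -0.0969) and Cldn19 (-0.101, -0.0855 and -0.0859), and without Fracture Male 1 for Mag (-0.143) and Egr2 (-0.0745). In Fracture+PDX against Sham Pmp22 reached -0.0121 and Cldn19 -0.101 without Sham Male 3, Mal -0.0961 without Sham Male 2, and Pou3f1 -0.108 without Fracture+PDX Male 1. The sign kept in all 176 values of Fracture against Sham, in 173 of Fracture+PDX against Sham and in 164 of Fracture+PDX against Fracture. Leaving out 1 library turned Egr2 in Fracture+PDX against Sham (range -0.22 to 0.0465) and, in Fracture+PDX against Fracture, Mbp (-0.00462 to 0.107), Prx (-0.0657 to 0.0778), Mal (-0.0518 to 0.0653) and Cldn19 (-0.0745 to 0.0526). The other members kept their sign in Fracture+PDX against Fracture but moved widely over the alternatives. Pmp22 ran from 0.0158 to 0.118, Mag from -0.131 to -0.00651, Egr2 from 0.038 to 0.221 and Pou3f1 from 0.045 to 0.233. With a replicate block that joined mice by sex and number, 0 of 8 were called in each comparison. In no comparison did all same-numbered pairs correlate over 0.1 (-0.142 to 0.383 in all), so the numbers were not taken to pair the mice, although the 3 male pairs of Fracture+PDX and Fracture had 0.172 to 0.383. The block called 25 genes higher and 93 lower in Fracture against Sham (225 and 378 without it), 213 and 273 in Fracture+PDX against Sham (447 and 478) and none in Fracture+PDX against Fracture. DESeq2 called 578 and 898, 755 and 825, and 12 and 9. Leaving out 1 library gave 68 to 292 higher and 145 to 463 lower in Fracture against Sham (68 and 145 without Fracture Female 2), and 217 to 494 and 281 to 514 in Fracture+PDX against Sham, and limma on log2(FPKM + 1) with no filter gave 27 and 94, and 107 and 240. The median correlation of the 28 pairs was 0.883, 0.843 with deviations by group and sex and 0.877 on log2(FPKM + 0.1).

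With 3 mice per sex and group, a difference of the size seen in males was not resolved after adjustment over all genes. Each member had at least 427 counts in every library.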
